A study of Mus musculus with 12 samples.

Results

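The first cell division of mouse B cells after lipopolysaccharide (LPS) was examined by setting cells that had divided once (Div1) against cells that had not divided (Div0). The 2 Div1 and the 2 Div0 libraries, 4 of the 12 libraries of the series, were paired by the host animal they came from, host 196 or host 197. Per the labels, the cells were splenic B cells (B220+ CD43-) stained with a division dye, CFSE or CTV, and moved into uMT mice. uMT animals have no mature B cells of their own, because the membrane form of the IgM heavy chain is disrupted, so dye-positive B cells in them come from the donor. Both groups were taken from spleen on day 3 after LPS, and both had therefore been in an LPS-treated host. No group without LPS was analysed here. The labels give the sex as female, the age as 8 weeks and the strain as B6.SJL-Ptprca Pepcb/BoyJ without saying whether this is the donor or the host, while the design text names C57/BL6J donors. Each library was made from 40000 sorted cells of 1 host, so there were n = 2 hosts per group. The fits took out the mean difference between the hosts. The p-values therefore speak for the scatter left over in these 2 animals, pooled over all 12 libraries (5 residual degrees of freedom). The other 8 libraries came from the same hosts at later divisions (Div3, Div5, Div8neg and Div8pos), and they entered the fits to estimate the spread. Of 21761 genes, 11252 had at least 10 counts in both libraries of Div1 or of Div0 and were tested; 10886 passed in both groups, 237 in Div1 alone and 129 in Div0 alone, and no gene was near 0 in one group and present in the other.

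LPS is a component of Gram-negative bacterial walls that B cells sense through Toll-like receptor 4, and it drives them from rest into growth, DNA replication and division. In each cycle, D-type and E-type cyclins and E2F factors open S phase, in which the genome is copied, and the B-MYB and FOXM1 factors then turn on the genes of G2 phase and mitosis. Genes of this last wave build the spindle, attach chromosomes to it at the kinetochore and divide the cell body. A division dye is shared between the daughter cells, so dye content counts the divisions a cell has completed but not the cycle phase it was in when sorted.

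Cells that had divided once held more messenger RNA than undivided cells of the same host. The deposited per-cell values, which scale each library to synthetic spike-in RNA added to a fixed number of cells, summed to 42829.9 and 59953.5 mRNAs per cell in Div1 cells of hosts 196 and 197, against 27408.8 and 33577.1 in Div0 cells. The 2 groups did not overlap. The ratio of Div1 to Div0 was 1.56 in host 196 and 1.79 in host 197 (mean 1.67 ± 0.158, SD, n = 2). With 2 against 2 libraries the smallest p of an exact two-sided permutation test that ignores the hosts is 0.33. A test that keeps the pairing is coarser still, so no test is given. Libraries held 11755133 and 14659709 gene counts in Div1 and 13208840 and 11551585 in Div0. In CPM, read counts scaled to the size of the library, B cell markers summed to 12490 and 11680 CPM in Div1 and 11890 and 11630 in Div0, so the labelled cell type was clear in all 4 libraries. Markers of other cells were far lower. Stromal and endothelial markers, mostly Pecam1, summed to 308.7 and 302.2 CPM in Div1 and 284.4 and 283.3 in Div0. Dendritic cell markers, mostly Flt3, summed to 296.5 and 297.8 CPM in Div1 and 93.4 and 103.7 in Div0. T cell markers, mostly Lck, summed to 60.1 and 59.4 CPM in Div1 and 48.3 and 45.6 in Div0. Macrophage and monocyte markers summed to 61.9 and 72.0 CPM in Div1 and 53.9 and 53.4 in Div0. Neutrophil markers summed to 6.55 and 67.4 CPM in Div1 and 8.4 and 36.7 in Div0, and erythroid markers to 13.4 and 3.48 in Div1 and 18.5 and 5.8 in Div0. The neutrophil and erythroid sums differed between the hosts more than between the groups.

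**Figure D1:**
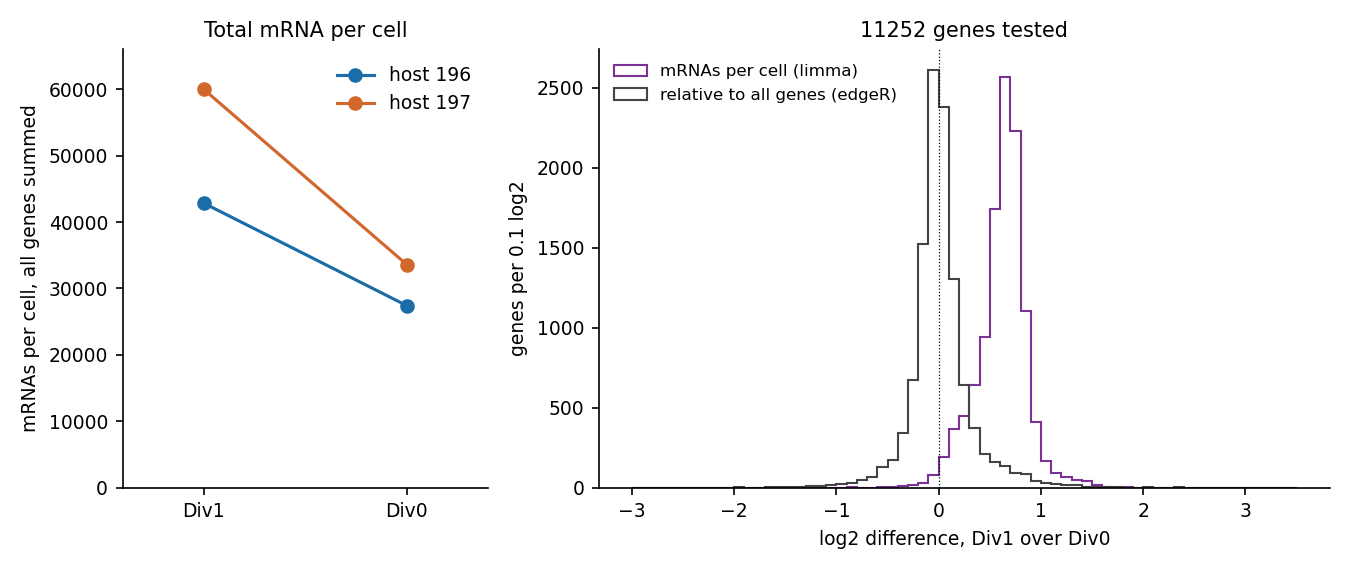
Left, the sum of mRNAs per cell over all genes in each library (y axis), with Div1 beside Div0 and a line joining the libraries of a host; both Div1 libraries lie above both Div0 libraries. Right, the number of genes (y axis) by their log2 difference of Div1 over Div0 (x axis), relative to all genes and per cell; the per-cell values are centred at 0.65.

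Relative to all genes, 1746 genes differed between Div1 and Div0 at an adjusted p under 0.05, with 994 higher in Div1 (8.83% of those tested) and 752 lower (6.68%). Counts of called list members given below are to be set against these shares. Adjusted p-values are Benjamini-Hochberg values over all 11252 genes, from edgeR's quasi-likelihood test with the host as a block, and log2 differences of Div1 over Div0 are given with their standard errors. Every one of the 1746 genes moved the same way in both hosts. The calls were made from these same libraries, so this agreement is not separate support for them. Over all 11252 genes, 4000 were higher in both hosts and 4046 were lower in both. Only 147 of the 1746 differed by at least 1 on the log2 scale (91 higher, 56 lower). The count fell to 1145 without the Div1 library of host 196, 835 without that of host 197, 871 without host 196's Div0 library and 998 when host 197's was left out. Per cell, tested with limma on log2 of mRNAs per cell plus 0.1, 9473 genes were higher in Div1 (84.2%) and 17 were lower (0.151%), with a median log2 difference of 0.65 over all genes. A single scaling factor per library moves all genes of that library together, so these are not independent calls, and their number fell to 1152 without the Div1 library of host 197 and to 1090 without the Div0 library of host 196. Of the 752 genes that were lower relative to all genes, 240 were still higher per cell, 495 did not pass the per-cell test and 17 were lower by both measures. Of these 17, 13 were also lower when edgeR took library sizes from the spike-in RNA, and Hbb-bs, Hopx, Tnfrsf12a and Wfdc17 were not. For most genes called lower below, the share of the messenger RNA pool was smaller while the number of molecules per cell was not called lower.

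Genes of mitosis were higher in cells that had divided once. Of 167 tested members of 7 overlapping lists, 119 were higher in Div1, against 8.83% of all genes, and 1 was lower, with a median log2 difference of 0.55 against -0.0019 for all genes. Together the 167 genes held 490.7 and 745.5 mRNAs per cell in Div1 cells of hosts 196 and 197, against 251.9 and 311.4 in Div0 cells. The share of all genes that were higher per cell was 84.2%. The count of higher members was 98 to 115 when any of the 4 libraries was left out, and per cell 166 of the 167 were higher.

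Of 34 proteins that build and move the spindle, 32 were higher in Div1 (median 0.81). Psrc1, a microtubule-binding protein of the spindle, had 19.5 and 22.2 CPM in Div1 cells of hosts 196 and 197, against 7.55 and 9.51 CPM in Div0 cells (log2 difference 1.30 ± 0.15, adjusted p = 5.2e-06). Fam64a, a regulator of the metaphase to anaphase transition, had 19.5 and 23.1 CPM in Div1 and 8.79 and 8.5 CPM in Div0 (1.30 ± 0.12, adjusted p = 4.4e-07). Both genes were more than doubled in each host, with no overlap between the groups. Depdc1a had 11.2 and 9.74 CPM in Div1 and 4.03 and 4.71 CPM in Div0 (1.25 ± 0.17, adjusted p = 3.1e-05). Aspm, which focuses spindle poles, had 80.1 and 79.7 CPM in Div1 and 42.3 and 35.3 CPM in Div0 (1.04 ± 0.07, adjusted p = 1.2e-08). The 2 members that did not pass were Numa1 (log2 difference -0.13) and Hn1 (0.03).

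Of 23 kinases, cyclins and phosphatases that start and order mitosis 21 were higher (median 0.66). Cdc25c, the phosphatase that activates CDK1, rose by a log2 difference of 0.94 ± 0.13 and Ccnb2, a B-type cyclin, by 0.92 ± 0.09. Plk1, the polo-like kinase of mitotic entry and centrosome maturation, had 77.5 and 94.2 CPM in Div1 against 43.0 and 53.9 CPM in Div0 (0.83 ± 0.10, adjusted p = 1.0e-05). Both Div1 libraries again lay above both Div0 libraries. Ccnb1 (0.74 ± 0.09), Aurkb, the kinase of the chromosomal passenger complex (0.66 ± 0.08), and Cdk1 itself (0.65 ± 0.09) rose as well. In molecules, Cdk1 amounted to 2.16 and 3.39 mRNAs per cell in Div1 and 0.911 and 1.2 in Div0.

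Of 33 kinetochore and centromere genes, 24 were higher and none was lower (median 0.56). Cenpe, the kinetochore motor that aligns chromosomes, had 101 and 110 CPM in Div1 against 50.5 and 52.2 CPM in Div0 (1.04 ± 0.06, adjusted p = 2.0e-09). Cenpf, another outer kinetochore protein, had 117 and 113 CPM in Div1 against 63.1 and 53.5 CPM in Div0 (0.98 ± 0.06, adjusted p = 5.4e-09). Ska1, which couples kinetochores to microtubule ends and stands in the spindle list too, had 10.2 and 11.7 CPM in Div1 and 5.57 and 6.23 CPM in Div0 (0.90 ± 0.15, adjusted p = 0.00031). In these 3 genes the groups did not overlap.

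Of 26 genes of the spindle checkpoint and anaphase 14 were higher and none was lower (median 0.27). Among them Ube2c (0.88 ± 0.08) and Cdc20 (0.85 ± 0.09), an enzyme and an activator of the anaphase-promoting complex, and the checkpoint kinase Bub1 (0.84 ± 0.07) rose. The 12 others included core subunits of that complex, with log2 differences such as 0.17 for Cdc27 and -0.05 for Cdc16. For condensin, cohesin and chromosome structure the count was 14 of 23 (median 0.34), or 9 with Div1 of host 197 left out. Mki67, the proliferation marker Ki-67 that coats mitotic chromosomes, had 829 and 897 CPM in Div1 against 472 and 467 CPM in Div0 (0.88 ± 0.05, adjusted p = 9.8e-10). Top2a, the topoisomerase that untangles sister chromatids, had 558 and 594 CPM in Div1 against 346 and 358 CPM in Div0 (0.71 ± 0.05, adjusted p = 1.3e-08). The condensin subunit Ncapg rose by 0.81 ± 0.08.

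For cytokinesis, 14 of 18 members rose (median 0.70). Anln, the actin-binding ring protein anillin, had 33.5 and 34.5 CPM in Div1 against 14.4 and 15.5 CPM in Div0 (1.18 ± 0.08, adjusted p = 1.6e-08). Prc1, which bundles microtubules of the central spindle (0.85 ± 0.07), and Kif23, a motor protein of the midzone (0.82 ± 0.08), rose as well. The single mitosis gene that was lower was the septin Sept9, named after its value was seen, with 140 CPM in both Div1 libraries against 172 and 159 CPM in Div0 (-0.24 ± 0.06, adjusted p = 0.0051), and it lost the call without the Div1 library of host 196 or the Div0 library of host 196.

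**Figure D2:**
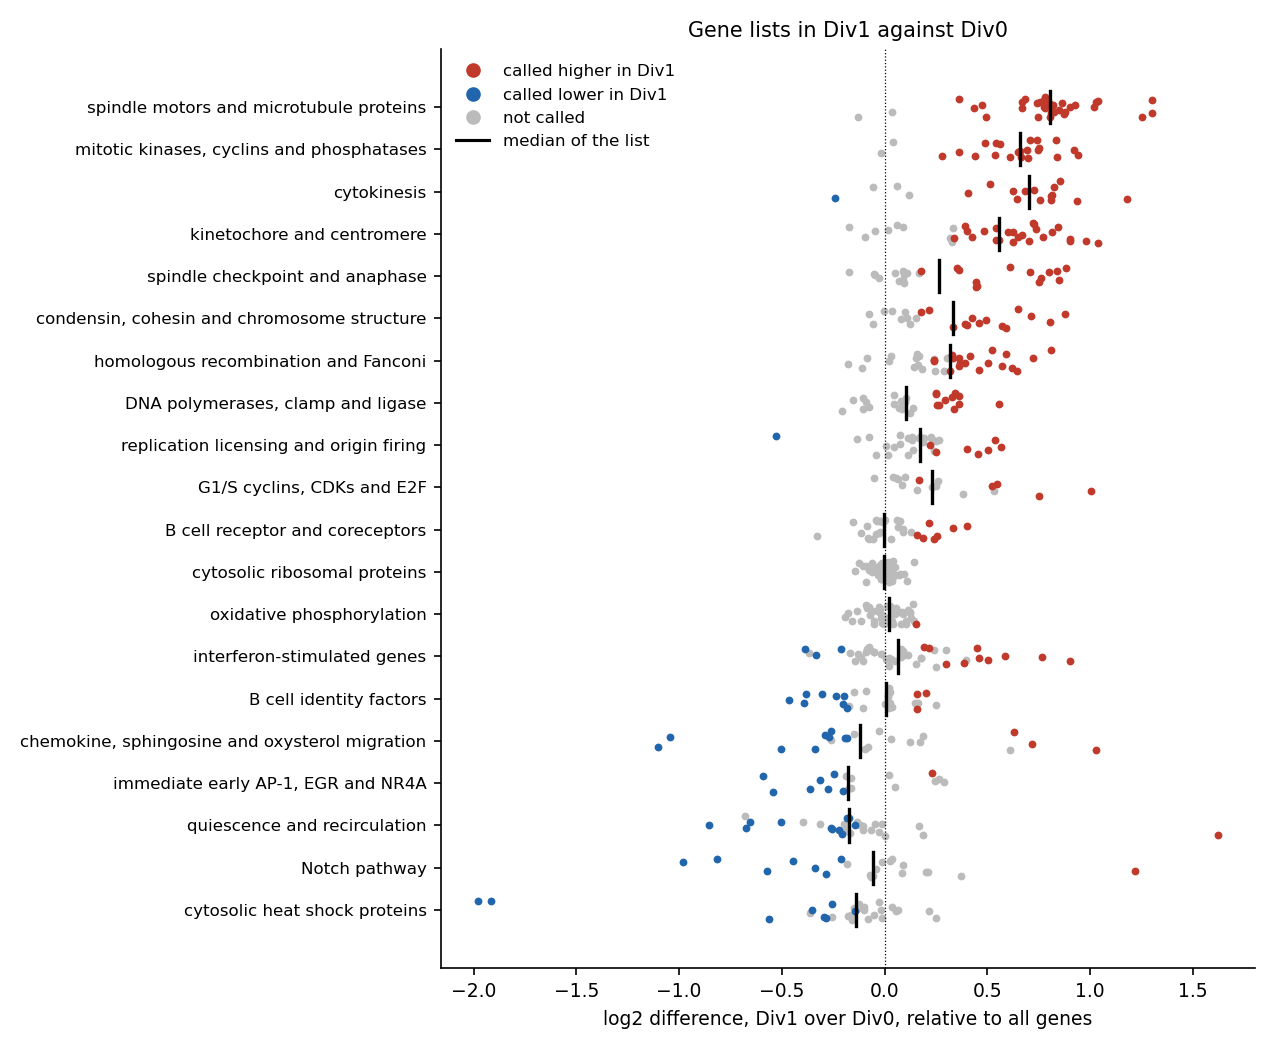
Each dot is 1 tested gene of the list named on the left, placed by its log2 difference of Div1 over Div0 relative to all genes (x axis) and coloured by its edgeR call; the black bar is the median of the list. The mitosis lists shown at the top lie mostly to the right of 0, with medians of 0.27 to 0.81, and the ribosomal proteins are centred near 0. The mitosis list of DREAM, MuvB, FOXM1 and B-MYB factors, with a median of 0.0058, is not drawn.

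Since mitosis genes moved together, the sequences just upstream of them were read. The cell cycle homology region (CHR, core TTTGAA or TTCGAA) is the element through which the MuvB complexes with B-MYB or the DREAM repressor bind G2 and mitosis promoters, and CCAAT boxes, bound by NF-Y, often lie nearby. In RefSeq promoters (GRCm38.p6, 250 bases before to 50 after the first listed gene start, either strand), found for 99 of the 119 called mitosis genes, 65 held the CHR core (65.7%) and 67 held CCAAT (67.7%). Among mitosis genes not called higher, the CHR core was in 10 of 39 (25.6%) and CCAAT in 19 (48.7%). The same shares were 14.1% and 39.7% among the 9016 tested genes with a promoter, and 19.4% and 37.9% among all 27025 genes with one. These letters occur by base composition alone, so a match is not evidence of binding. The promoters of the 4 called members of the mitosis lists with the largest log2 difference that had one follow, 5′ to 3′ on the gene's strand. CHR cores and CCAAT boxes of either strand are in capitals. Myb is among them only through the list of DREAM, MuvB, FOXM1 and B-MYB factors. They lie at chr10:21160935-21161234 (minus strand, Myb), chr3:108383554-108383853 (plus strand, Psrc1), chr3:159495183-159495482 (plus strand, Depdc1a) and chr9:22389157-22389456 (minus strand, Anln).
Myb: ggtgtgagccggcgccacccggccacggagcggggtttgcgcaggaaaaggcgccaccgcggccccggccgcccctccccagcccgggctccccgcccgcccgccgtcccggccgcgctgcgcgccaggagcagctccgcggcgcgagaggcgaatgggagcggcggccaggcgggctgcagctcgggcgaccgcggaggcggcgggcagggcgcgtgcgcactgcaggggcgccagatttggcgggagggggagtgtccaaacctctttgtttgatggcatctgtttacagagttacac
Psrc1: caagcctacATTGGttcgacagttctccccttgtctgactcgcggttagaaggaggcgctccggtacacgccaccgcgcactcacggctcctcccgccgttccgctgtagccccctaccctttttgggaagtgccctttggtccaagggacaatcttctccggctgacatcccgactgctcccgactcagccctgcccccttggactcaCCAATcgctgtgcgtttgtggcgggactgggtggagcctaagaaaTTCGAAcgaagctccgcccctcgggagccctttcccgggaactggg
Depdc1a: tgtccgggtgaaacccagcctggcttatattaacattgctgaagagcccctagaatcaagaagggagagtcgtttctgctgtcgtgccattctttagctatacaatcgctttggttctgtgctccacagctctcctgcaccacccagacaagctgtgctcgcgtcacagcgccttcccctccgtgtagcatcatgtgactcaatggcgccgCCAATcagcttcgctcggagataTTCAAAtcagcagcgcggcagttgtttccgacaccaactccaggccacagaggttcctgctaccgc
Anln: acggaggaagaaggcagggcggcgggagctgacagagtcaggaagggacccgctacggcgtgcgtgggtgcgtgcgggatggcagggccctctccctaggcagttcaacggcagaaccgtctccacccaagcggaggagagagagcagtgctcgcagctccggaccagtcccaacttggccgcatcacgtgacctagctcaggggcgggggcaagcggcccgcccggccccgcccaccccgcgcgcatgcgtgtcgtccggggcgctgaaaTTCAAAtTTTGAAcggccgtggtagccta
Psrc1 and Depdc1a held a CCAAT box and a CHR core near the start, Anln held 2 CHR cores just after the start, and the window of Myb held none of these letters.

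Of 15 members of the DREAM, MuvB, FOXM1 and B-MYB list, which counts among the mitosis lists, 5 were higher and none was lower (median 0.01). Myb, a proliferation factor of immature blood cells, had 30.4 and 32.9 CPM in Div1 against 12.8 and 12.5 CPM in Div0 (1.32 ± 0.10, adjusted p = 1.6e-08). Foxm1 had 116 and 137 CPM in Div1 against 74.9 and 72.8 CPM in Div0 (0.77 ± 0.07, adjusted p = 2.5e-07), and Mybl2, which encodes B-MYB, had 169 and 214 CPM in Div1 against 128 and 146 CPM in Div0 (0.48 ± 0.08, adjusted p = 0.00038). Both libraries of Div1 lay above both of Div0 for these 3 factors. Rbl1, a pocket protein of the repressor complex (0.27 ± 0.05), and Tfdp1, the partner of E2F proteins (0.32 ± 0.07), completed the 5. Tfdp1 lost the call without the Div1 library of host 197 (adjusted p = 0.11) or the Div0 library of host 196 (adjusted p = 0.074).

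Over 7 lists of G1 and S phase, from G1/S cyclins to recombination, 53 of 170 tested members were higher (31.2%, against 8.83% of all genes) and 2 were lower, with a median of 0.16. The difference from the mitosis lists was not tested. Of 17 G1/S cyclins, CDKs and E2F factors 5 were higher, namely Ccnd1, E2f7, E2f8, E2f2 and Cdk2, and 3 were higher with Div0 of host 196 left out. Cdk2, the partner kinase of cyclin E, lost the call in each of the 4 fits without a library (adjusted p = 0.12 to 0.31). Ccnd1, a D-type cyclin, had 8.3 and 7.36 CPM in Div1 and 3.3 and 4.54 CPM in Div0 (1.01 ± 0.21, adjusted p = 0.0027), and lost the call without the Div0 library of host 196 (adjusted p = 0.12). Ccnd2, another D-type cyclin, had 527 and 512 CPM in Div1 and 472 and 458 CPM in Div0 and did not pass (0.16 ± 0.06, adjusted p = 0.059). Ccne1, the S phase cyclin, had a log2 difference of 0.25 ± 0.11 and did not pass either (adjusted p = 0.14). With Div1 and Div0 alone in the edgeR fit both passed, Ccnd2 at 0.15 (adjusted p = 0.0085) and Ccne1 at 0.24 (adjusted p = 0.026). Ccnd2 also passed in edgeR with no filter beyond 1 count (0.15, adjusted p = 0.014). The activator E2f2 rose by 0.52 ± 0.05 and the repressors E2f7 and E2f8, which damp E2F targets late in S phase, by 0.75 ± 0.12 and 0.55 ± 0.10.

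Of 30 licensing and origin firing genes 7 were higher, with 4 when Div1 of host 197 was left out. Among the 7 were Ticrr (0.57 ± 0.08), Mcm10 (0.54 ± 0.08) and the fork protein Clspn (0.50 ± 0.08). Cdt1, the licensing factor that loads the MCM helicase in G1 and is removed in S phase, was the 1 lower member, with 62.2 and 71.2 CPM in Div1 against 93.0 and 99.6 CPM in Div0 (-0.53 ± 0.06, adjusted p = 4.4e-06), and its number of molecules per cell did not pass the test (per-cell log2 difference 0.19, limma adjusted p = 0.40). Of 27 polymerase, clamp and ligase genes 11 were higher, led by the nuclease Dna2 (0.56 ± 0.09), but 3 were higher with Div1 of host 197 left out, 6 with Div0 of host 196 left out and 5 with Div0 of host 197 left out. Of 25 nucleotide synthesis genes 6 were higher, and 3 when either Div1 of host 197 or Div0 of host 196 was left out. Among the 6 were Tyms (0.52 ± 0.09), Rrm2 (0.51 ± 0.07) and Tk1 (0.40 ± 0.06), which make thymidylate and deoxynucleotides. Impdh1, an enzyme of guanine nucleotide synthesis, was lower, with 16.8 and 18.6 CPM in Div1 against 33.6 and 38.5 CPM in Div0 (-1.03 ± 0.09, adjusted p = 3.2e-07). Poly(A) selection captures little histone RNA, and of 10 replication-dependent histones that could be tested only Hist1h2ak passed (0.87 ± 0.15).

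Of 35 homologous recombination and Fanconi genes 19 were higher and none was lower (median 0.32), and 9 to 19 passed when a library was left out, with 9 without the Div1 library of host 197 and 11 without either Div0 library. Gen1, a resolvase of DNA junctions, had 23.6 and 24.7 CPM in Div1 against 14.8 and 12.7 CPM in Div0 (0.81 ± 0.10, adjusted p = 8.3e-06). The nuclease subunit Eme1 (0.72 ± 0.11), the helicase Brip1 (0.64 ± 0.08) and the BRCA1 partner Bard1 (0.62 ± 0.09) also rose. Rec8, a cohesin subunit known from meiosis, was the only one of 8 tested meiosis genes to pass, with 13.7 and 14.6 CPM in Div1 against 6.45 and 5.3 CPM in Div0 (1.26 ± 0.18, adjusted p = 4.3e-05). In the DNA methylation and chromatin list, the methyltransferases Dnmt3a (0.54 ± 0.06) and Ezh2 (0.49 ± 0.06) rose among 7 higher members of 21, and 2 were lower. The higher members were 3 with Div1 of host 197 or Div0 of host 196 left out, and the lower ones were 1 with Div1 of host 196 left out and 0 in the other 3 such fits.

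Of 26 CDK inhibitors and p53 targets 4 were higher and none was lower, and 1 was higher with Div0 of host 197 left out and 2 with either library of host 196 left out. Cdkn2c, the inhibitor p18 of CDK4 and CDK6, had 37.0 and 45.2 CPM in Div1 against 23.4 and 21.8 CPM in Div0 (0.87 ± 0.10, adjusted p = 6.0e-06). Cdkn1b, which encodes p27 and is linked to rest, had 102 and 97.4 CPM in Div1 and 108 and 109 CPM in Div0 and did not pass (-0.13 ± 0.06, adjusted p = 0.14). With Div1 and Div0 alone in the edgeR fit it was lower (-0.14, adjusted p = 0.014). The 3 others that passed, Bbc3, Sesn2 and Sesn3, each lost the call without at least 1 library, with adjusted p-values of up to 0.096, 0.20 and 0.099.

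Heat shock proteins, chaperones made in response to unfolded protein, included 2 of the 17 genes that were lower per cell. Of 28 tested members of the cytosolic heat shock list 8 were lower, against 6.68% of all genes, and none was higher (median -0.14), and 4 to 8 were lower without any 1 library, with 4 when the Div0 library of host 197 was the one left out and 5 when it was Div1 of host 196. Hspa1b had 3.1 and 3.64 CPM in Div1 against 16.5 and 10.5 CPM in Div0 (-1.98 ± 0.21, adjusted p = 1.5e-06). Its neighbour Hspa1a had 2.52 and 2.19 CPM in Div1 against 10.6 and 7.24 CPM in Div0 (-1.92 ± 0.21, adjusted p = 2.3e-06). These 2 genes encode the same HSP70 protein from nearly identical copies, so reads may be shared between them and their separate values are uncertain. Both were also lower per cell: Hspa1b had 0.126 and 0.21 mRNAs per cell in Div1 and 0.44 and 0.334 in Div0 (limma adjusted p = 0.00012). Hsph1, an HSP110 chaperone (-0.56 ± 0.06), and Dnajb1, an HSP40 cochaperone (-0.35 ± 0.06), were lower relative to all genes and were not called per cell. Heat shock factor binds inverted repeats whose unit can be written GAANNTTC, and the promoter of Hspa1b at chr17:34959189-34959488 (minus strand, GRCm38.p6, RefSeq) is shown with that match in capitals.
Hspa1b: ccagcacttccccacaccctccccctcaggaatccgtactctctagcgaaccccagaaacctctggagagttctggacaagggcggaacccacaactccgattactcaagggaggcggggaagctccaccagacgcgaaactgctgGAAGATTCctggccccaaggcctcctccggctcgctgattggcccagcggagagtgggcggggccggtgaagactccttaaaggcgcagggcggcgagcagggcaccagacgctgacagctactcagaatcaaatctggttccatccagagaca
The unit was in 8 of 24 heat shock promoters (33.3%) and in 5.65% of tested genes. It was in 4 of the 7 of called members (57.1%) and in 4 of the 17 of members not called lower (23.5%). The called members with it include both Hspa1a and Hspa1b, the nearly identical copies.

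The other 15 genes that were lower per cell were of mixed function. Pde2a, a phosphodiesterase that breaks down cyclic AMP when cyclic GMP is present, showed the largest fall of any gene tested, with 3.94 and 3.78 CPM in Div1 against 29.0 and 27.8 CPM in Div0 (-2.89 ± 0.20, adjusted p = 9.7e-09). In molecules it had 0.0939 and 0.128 mRNAs per cell in Div1 against 0.455 and 0.519 in Div0 (limma adjusted p = 9.9e-15). Mapk12, the p38 gamma kinase, had 3.52 and 4.44 CPM in Div1 against 16.3 and 14.9 CPM in Div0 (-1.95 ± 0.18, adjusted p = 3.2e-07). Cacna1i, a T-type calcium channel subunit, had 35 and 23.5 CPM in Div1 against 102 and 85.3 CPM in Div0 (-1.70 ± 0.10, adjusted p = 2.0e-09). For all 3 the groups were far apart in both hosts. Kif19a, a kinesin of cilia, had 1.09 and 0.928 CPM in Div1 against 4.69 and 4.46 CPM in Div0. These last 4 genes were the ones still lower per cell in each of the 4 fits without a library. Extl1, Epcam, Hopx, Cyp4f16, Tnfrsf12a, 4921507P07Rik, Rab6b, Wfdc17 and L1cam were also lower per cell, with 0.0123 to 0.596 mRNAs per cell in Div1, and Hopx, L1cam, Rab6b, Tnfrsf12a and 4921507P07Rik lost the per-cell call in all 4 of those fits. Tnfrsf12a, Wfdc17, Cyp4f16 and 4921507P07Rik also lost the call relative to all genes without the Div1 library of host 197, and Tnfrsf12a lost it in all 4 of those fits. Tnfrsf12a, Wfdc17 and 4921507P07Rik lost it in DESeq2 too (adjusted p = 0.25, 0.39 and 0.17). The last were the globins Hba-a2 and Hbb-bs, products of red cells. Hba-a2 had 25.1 CPM in host 196 and 1.52 CPM in host 197 in Div1, against 46.5 and 12.9 CPM in Div0. Both globins lost the call relative to all genes in edgeR without the host block (adjusted p = 0.43 for Hba-a2 and 0.48 for Hbb-bs). They also lost it in DESeq2 (adjusted p = 0.089 and 0.22). Hbb-bs lost its call relative to all genes without the Div0 library of host 196 (adjusted p = 0.28) or the Div1 library of host 197 (adjusted p = 0.074), and its per-cell log2 difference of -0.47 turned to 0.062 when the Div1 library of host 197 was left out. Both globins were higher in host 196 than in host 197, as the erythroid marker sum given above was, and the part of red cells in them was not tested.

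**Figure D3:**
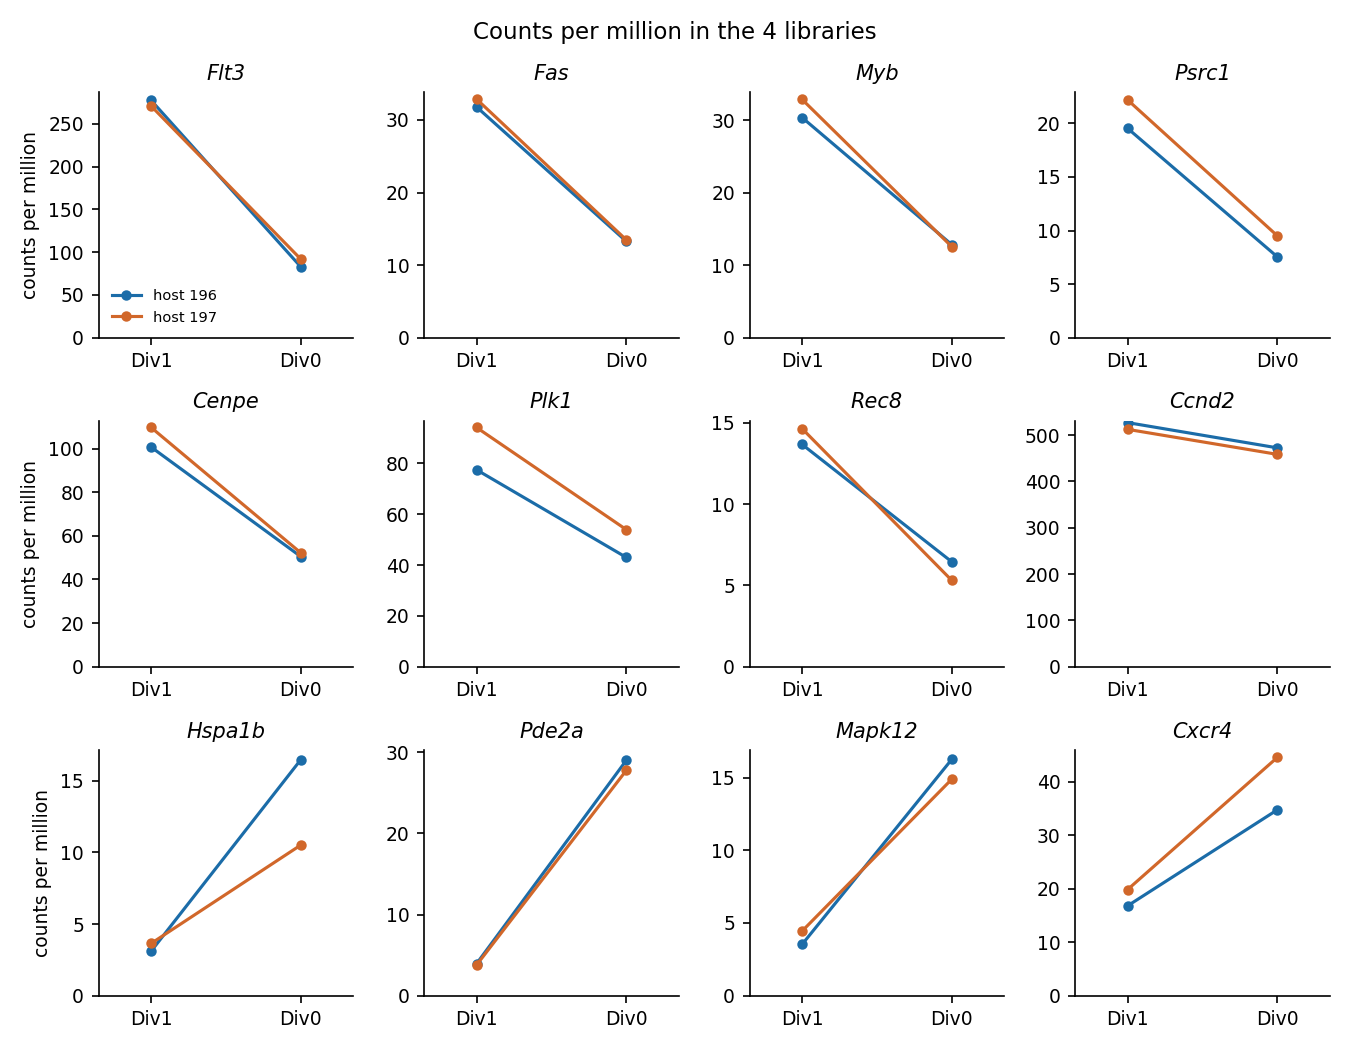
CPM (y axis, from 0) of 12 genes in the 4 libraries, with Div1 left of Div0 and a line joining the libraries of a host (blue, host 196; orange, host 197). In all panels both hosts slope the same way; the slope of Ccnd2 is shallow and did not pass the test.

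Other members of the kinase, channel and phosphodiesterase lists were mixed. Over all genes tested 8.83% were higher and 6.68% lower, and the share of phosphodiesterases and cyclases that were higher was 9.09%. Of 19 p38 kinases and dual-specificity phosphatases 5 were lower and none was higher, including Mapk11, the p38 beta kinase (-0.52 ± 0.07), and the phosphatases Dusp3 (-1.19 ± 0.19) and Dusp7 (-0.49 ± 0.07). Of 23 calcium and potassium channel genes 5 were higher and 4 lower, against 2 higher and 1 lower with Div1 of host 197 left out, 2 higher with Div0 of host 196 left out and 2 lower with Div0 of host 197 left out. The L-type calcium channel subunit Cacna1d was higher (0.94 ± 0.20, adjusted p = 0.0031), a call lost without the Div0 library of host 196 (adjusted p = 0.057). Of 22 phosphodiesterases and cyclases 2 were higher (1 with either library of host 197 left out), with Pde4a at 69.2 and 77.5 CPM in Div1 against 55.3 and 52.0 CPM in Div0 (0.45 ± 0.07), and 2 were lower, with Pde4b at 107 and 106 CPM in Div1 against 132 and 134 CPM in Div0 (-0.32 ± 0.05).

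Receptors at the cell surface included some of the largest rises. Flt3, a receptor tyrosine kinase known from blood progenitors and dendritic cells, had 278 and 271 CPM in Div1 against 82.7 and 91.7 CPM in Div0 (1.66 ± 0.08, adjusted p = 1.8e-10). Per cell it had 8.64 and 12 mRNAs in Div1 against 1.7 and 2.24 in Div0. Flt3 is also 1 of 7 dendritic cell markers used here. Of the others Itgax and Zbtb46 were higher in Div1 as well, at 7.89 and 10.1 CPM for Itgax in Div1 against 3.59 and 4.71 CPM in Div0, while Clec9a and Batf3 had at most 1 count in any of the 4 libraries and Xcr1 and Siglech had at most 6. The part of dendritic cells in the Flt3 value was not tested. Csf2ra, the GM-CSF receptor alpha chain, had 82.0 and 83.1 CPM in Div1 against 39.6 and 43.9 CPM in Div0 (0.98 ± 0.07, adjusted p = 9.9e-09), and Il9r, the interleukin-9 receptor, had 829 and 724 CPM in Div1 against 488 and 477 CPM in Div0 (0.68 ± 0.05, adjusted p = 4.0e-08). Of 39 cytokine receptors and kinases 6 were higher and 6 were lower, against 8.83% and 6.68% of all genes. The higher ones were 5 or 6 in the fits without a library, while the lower ones were 3 with Div1 of host 196 left out and 2 in each of the other 3. Socs3, an inhibitor of cytokine signalling, fell by 0.72 ± 0.07 on the log2 scale.

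Among 25 receptors, ligands and costimulators of the TNF family list 6 were higher and 2 were lower, against 8.83% and 6.68% of all genes. Fewer were higher with Div0 of host 196 left out. Fas, the death receptor that activated B cells acquire, had 31.8 and 32.9 CPM in Div1 against 13.3 and 13.5 CPM in Div0 (1.29 ± 0.10, adjusted p = 4.1e-08). Cd80, a ligand of CD28 on T cells, rose by 0.91 ± 0.17 and the activation marker Cd83 by 0.38 ± 0.04. Tnfrsf1b, the second TNF receptor, had 32.3 and 36.0 CPM in Div1 against 44.9 and 49.9 CPM in Div0 (-0.47 ± 0.08, adjusted p = 0.0005). Of 29 BCL2 family and caspase genes 9 were higher and 3 lower, against 8.83% and 6.68% of all genes. With Div0 of host 197 left out 4 were higher and 1 was lower, and none was lower with Div1 of host 197 or Div0 of host 196 left out. The survival gene Bcl2a1b rose by 0.56 ± 0.05, with near-identical copies nearby that may share its reads, and the death agonist Bid, which links death receptors to mitochondria, by 0.44 ± 0.05.

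Genes of rest and recirculation made up a smaller share of the messenger RNA in Div1. Of 29 members 11 were lower, against 6.68% of all genes, and 1 was higher (median -0.18), with 4 lower without the Div1 library of host 197, 6 without either Div0 library and 8 when the Div1 library of host 196 was left out. Tsc22d3, a glucocorticoid-induced gene of resting lymphocytes, had 42.8 and 53 CPM in Div1 against 83.2 and 89.5 CPM in Div0 (-0.86 ± 0.08, adjusted p = 5.4e-07). Klf2, the factor that keeps lymphocytes at rest and sustains S1pr1, had 101 and 121 CPM in Div1 against 158 and 192 CPM in Div0 (-0.65 ± 0.07, adjusted p = 2.2e-06). S1pr1, the receptor with which lymphocytes leave tissue, had 179 and 155 CPM in Div1 against 253 and 220 CPM in Div0 (-0.51 ± 0.05, adjusted p = 1.5e-06). The RNA-destabilising protein Zfp36l2 was lower too (-0.67 ± 0.07). None of these 4 was called per cell: Klf2, for example, had 6.33 and 10.8 mRNAs per cell in Div1 and 6.52 and 9.42 in Div0. The higher member was Rgs1, which dampens chemokine receptors, at 1.76 and 2.39 CPM in Div1 and 0.44 and 0.926 CPM in Div0. Rgs1 passed the filter of 10 counts through Div1 alone, the group where it was higher. It lost the call without the Div1 library of host 197 or the Div0 library of host 196.

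Of 22 chemokine, sphingosine and oxysterol genes 9 were lower (against 6.68% of all genes) and 3 higher, and 4 were lower without the Div1 library of host 197 or either Div0 library. Cxcr4, the receptor for CXCL12 that holds B cells in bone marrow and germinal centre dark zones, had 16.8 and 19.8 CPM in Div1 against 34.7 and 44.5 CPM in Div0 (-1.10 ± 0.11, adjusted p = 8.1e-07). Spns2, a sphingosine phosphate exporter, had 11.4 and 10.7 CPM in Div1 against 25.7 and 19.9 CPM in Div0 (-1.05 ± 0.14, adjusted p = 1.7e-05). The 3 higher genes were chemokine receptors: Ccr1 had 51.4 and 31.9 CPM in Div1 against 22.0 and 18.6 CPM in Div0 (1.03 ± 0.09, adjusted p = 2.6e-07), and Ccr6, named after its value was seen, had 631 and 535 CPM in Div1 against 400 and 352 CPM in Div0 (0.63 ± 0.05). Cxcr3, which draws lymphocytes to inflamed tissue, had 18.3 and 23.7 CPM in Div1 against 10.2 and 15.8 CPM in Div0 (0.72 ± 0.14), and lost the call without the Div1 library of host 197 (adjusted p = 0.057) or the Div0 library of host 196 (adjusted p = 0.07). Of 16 integrins and adhesion genes 4 were higher, with 2 in each of the 4 fits without a library, and 3 were lower (2 with Div1 of host 197 or Div0 of host 196 left out), including Itgax (1.11 ± 0.16) on one side and on the other Itgb7, the gut-homing beta 7 chain, at 120 and 103 CPM in Div1 against 184 and 168 CPM in Div0 (-0.66 ± 0.06), and Icam2 (-0.47 ± 0.08).

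In the Notch pathway, which directs marginal zone B cell fate, 7 of 21 genes were lower, against 6.68% of all genes, and 1 was higher, against 8.83%, and 4 to 7 were lower without any 1 library, with 4 without the Div0 library of host 196. The ligand Dll1 rose, with 12.9 and 16.1 CPM in Div1 against 5.79 and 6.82 CPM in Div0 (1.22 ± 0.18, adjusted p = 6.2e-05). The target gene Hes1 had 32.2 and 28.2 CPM in Div1 against 49.1 and 57.1 CPM in Div0 (-0.81 ± 0.10, adjusted p = 1.4e-05). The glycosyltransferase Lfng, which tunes the receptor (-0.57 ± 0.07), and the coactivator Maml3 (-0.98 ± 0.17) were also lower.

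Of 17 immediate early genes, switched on within minutes of a signal, 7 were lower, against 6.68% of all genes, and 1, Egr3, was higher (median -0.18). Egr3 lost the call without the Div1 library of host 197 or either Div0 library, with adjusted p-values of up to 0.14. Ier2 had 30.3 and 34.8 CPM in Div1 against 47.8 and 50.7 CPM in Div0 (-0.59 ± 0.08, adjusted p = 1.4e-05) and Jund fell by 0.36 ± 0.05 on the log2 scale. With either Div1 of host 196 or Div0 of host 197 left out 4 of them were lower, and 5 in the other 2 such fits. Among 34 NF-kB and Toll-like receptor genes 6 were higher, including the adaptor Traf1 (0.34 ± 0.05), and 4 were lower. Over all genes the shares were 8.83% and 6.68%. With Div1 of host 197 left out 3 were higher and 1 was lower, and with Div0 of host 196 or host 197 left out 1 and 2 were lower. Of 44 interferon-stimulated genes 10 were higher, against 8.83% of all genes, and 3 lower. The higher ones were 5 with Div1 of host 197 or Div0 of host 196 left out and 6 with Div1 of host 196 left out, and 1 was lower with either library of host 197 left out. Ifih1, the sensor MDA5, had 34.8 and 45.1 CPM in Div1 against 19.4 and 23.5 CPM in Div0 (0.90 ± 0.09, adjusted p = 1.1e-06), and the GTPases Iigp1 (0.76 ± 0.15) and Gbp2 (0.59 ± 0.07) rose as well. In the circadian clock list of 15 genes 2 were higher, or 1 in 3 of the 4 fits without a library, and 1 was lower. Bhlhe40 had 205 and 209 CPM in Div1 against 122 and 130 CPM in Div0 (0.72 ± 0.05, adjusted p = 1.2e-08), while Nr1d2, the repressor REV-ERB beta, had 10.3 and 10.5 CPM in Div1 against 24.2 and 21.6 CPM in Div0 (-1.13 ± 0.12, adjusted p = 2.5e-06).

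Pax5, the factor that maintains the B lineage, had 380 and 378 CPM in Div1 and 375 and 375 CPM in Div0 (0.02 ± 0.05, adjusted p = 0.86). Of 26 identity factors 8 were lower, against 6.68% of all genes, and 3 higher. With either library of host 196 left out 5 were lower and with either of host 197 left out 4, and the higher ones were 1 with either Div1 library left out and 0 with Div0 of host 196 left out. Bcl6, the germinal centre repressor, had 67.6 and 60.3 CPM in Div1 against 91.4 and 85.2 CPM in Div0 (-0.47 ± 0.06, adjusted p = 1.0e-05). Faim3, the IgM Fc receptor (-0.39 ± 0.06), and Ets1, a factor that restrains plasma cell formation (-0.38 ± 0.04), were lower relative to all genes and were not called per cell. Of 30 B cell receptor components and coreceptors 7 were higher, or 4 with either Div1 library left out, and none was lower, with Cd72 (0.40 ± 0.05) and Siglecg (0.34 ± 0.04), 2 inhibitory coreceptors, first among them.

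Prdm1, the master regulator of plasma cells, had 4.28 and 5.83 CPM in Div1 and 4.62 and 8.08 CPM in Div0 and did not pass (-0.30 ± 0.28, adjusted p = 0.52). Of 18 tested plasma cell genes 2 were higher and 5 lower. None was higher with either Div1 library or Div0 of host 197 left out and 1 with Div0 of host 196 left out, and the lower ones were 1 with either library of host 197 and 3 with either of host 196 left out. Xbp1, the factor of the secretory programme, had 91.2 and 100 CPM in Div1 against 111 and 123 CPM in Div0 (-0.28 ± 0.07, adjusted p = 0.0065). That call was lost without the Div0 library of host 197 (adjusted p = 0.056) or the Div1 library of host 197 (adjusted p = 0.062). Of 38 genes of the unfolded protein response 2 were higher and 5 lower, against 8.83% and 6.68% of all genes, but none was higher with Div1 of host 197 or either Div0 library left out, and the lower ones were 0 and 1 with Div1 and Div0 of host 197 left out and 3 and 2 with Div1 and Div0 of host 196 left out. Of 12 MHC class II genes 2 were higher, and none with either library of host 196 left out. Of 20 class switching genes 1 was higher, a smaller share than that of all genes.

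None of 58 cytosolic ribosomal protein genes differed relative to all genes by edgeR (range -0.14 to 0.15, median -0.0022) or by DESeq2, and 4 had an unadjusted p under 0.05, with 2 in each direction. In the edgeR fits without a library, 1 was lower with Div1 of host 196 left out and 2 were higher with Div0 of host 197 left out. All 58 were higher per cell, against 84.2% of all genes. Together they held 5720 and 7678 mRNAs per cell in Div1 and 3545 and 4487 in Div0. Rplp0, for example, had 147 and 202 mRNAs per cell in Div1 and 84.9 and 109 in Div0. Of 48 oxidative phosphorylation genes 1 was higher, a count that changed in each fit without a library. All 48 were higher per cell, also against 84.2% of all genes. Myc, which drives ribosome synthesis, had 204 and 248 CPM in Div1 and 205 and 240 CPM in Div0 (0.02 ± 0.07, adjusted p = 0.87), and of 40 MYC target and ribosome biogenesis genes 1, the MYC antagonist Mxd4 (0.49 ± 0.06), was higher and 4 were lower. The 4 became 0 with Div1 of host 196 left out, 2 with Div0 of host 196 left out and 1 with Div0 of host 197 left out. Of 22 glycolysis genes 3 were lower, including Aldoa (-0.36 ± 0.05), but 1 with Div1 of host 196 or either Div0 library left out. Of 32 cholesterol and fatty acid genes 5 were lower, including the exporter Abca1 (-0.72 ± 0.12), and 1, the desaturase Scd2 (0.37 ± 0.05), was higher. Over all genes 6.68% were lower and 8.83% higher.

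Several of the largest rises lay outside the pathways above. Shank1, a scaffold protein known from synapses, had 182 and 200 CPM in Div1 against 80.1 and 74.8 CPM in Div0 (1.30 ± 0.07, adjusted p = 3.0e-10). Aire, the regulator that displays tissue antigens in the thymus, had 43.4 and 47.4 CPM in Div1 against 18.1 and 18.3 CPM in Div0 (1.33 ± 0.11, adjusted p = 6.5e-08). In molecules, Aire had 2.19 and 3.39 mRNAs per cell in Div1 against 0.601 and 0.726 in Div0. Both genes are better known from other tissues, and each was at more than 2 times the Div0 level in both hosts. The actin bundler Fscn1 (1.17 ± 0.20), the lysophospholipid receptor Gpr34 (1.16 ± 0.16), the helicase Pif1 (1.12 ± 0.11), the glutamate receptor subunit Grik5 (1.12 ± 0.17) and the nuclease Ankle1 (1.09 ± 0.12) also rose. Mpeg1, the pore-forming perforin-2, had 378 and 399 CPM in Div1 against 191 and 219 CPM in Div0 (0.92 ± 0.06, adjusted p = 2.0e-09). The genes with the most molecules in Div1 included Cd74, the invariant chain of MHC class II, which had 334 and 430 mRNAs per cell in Div1 and 215 and 270 in Div0.

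Whether these differences belonged to the first step was tested against the next step in the series, Div3 over Div1, as the difference of the 2 log2 differences. The Div1 libraries enter both steps, so an error in them moves this contrast one way. The test called 157 genes as changing more upward at the first step (1.4%) and 33 as changing more downward (0.293%). Of the 167 mitosis genes 58 were among the 157, including 26 of the 34 spindle genes, and none was among the 33. At the next step 8 of the 167 were higher and 2 lower, and the median next-step difference was 0.08. The 190 calls fell to 74 without the Div1 library of host 196, to 15 without that of host 197, to 86 and 96 without the Div0 libraries of hosts 196 and 197 and to 102 without the Div3 library of host 196, and the 58 mitosis genes to 6 without the Div1 library of host 197, 31 and 35 without Div0 of hosts 196 and 197, 37 without Div1 of host 196 and 32 without Div3 of host 196. Anln (first step minus next step 1.23 ± 0.13), Cenpf, Aspm and Mki67 were called in every alternative fit, as were Flt3, Csf2ra and Shank1. Flt3 also rose at the next step, by 0.62, but less than at the first (1.03 for the difference, adjusted p = 0.00026).

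Depdc1a (1.47 ± 0.27), Tsga13 (1.39 ± 0.25), Fam64a (1.37 ± 0.19) and Rec8 (1.29 ± 0.28) were, with Anln, the 5 called genes with the largest positive value among those of 10 CPM or more, and these 4 lost the call without the Div1 library of host 197. On the opposite side, the change was at the next step for 2 of the genes. Trabd2b had a log2 difference of 0.19 at the first step, which did not pass, and of 1.73 at the next (difference -1.54 ± 0.26, adjusted p = 0.0034), and Zbtb32, a repressor of activated B cells, had 0.19 and 1.43 (difference -1.23 ± 0.25, adjusted p = 0.012). Pik3r6, a regulator of PI3K gamma (-1.35 ± 0.31), was not called at the first step either. The carboxypeptidase Cpd was higher at both steps (-1.23 ± 0.22), but its first-step call was lost with Div1 of host 197 left out (adjusted p = 0.42), with Div0 of host 196 left out (adjusted p = 0.17) and without the host block (adjusted p = 0.097). Ahnak was lower at the first step and higher at the next (-1.18 ± 0.18). These 5 lost the call of this contrast without at least 1 library, Trabd2b, Pik3r6, Cpd and Zbtb32 without the Div1 library of host 196 (adjusted p = 0.061, 0.43, 0.11 and 0.17) and Ahnak without that of host 197 (adjusted p = 0.16). Among genes called at the first step, 177 of the 994 higher ones were higher again at the next and 13 were lower, and 169 of the 752 lower ones were lower again and 3 were higher.

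**Figure D4:**
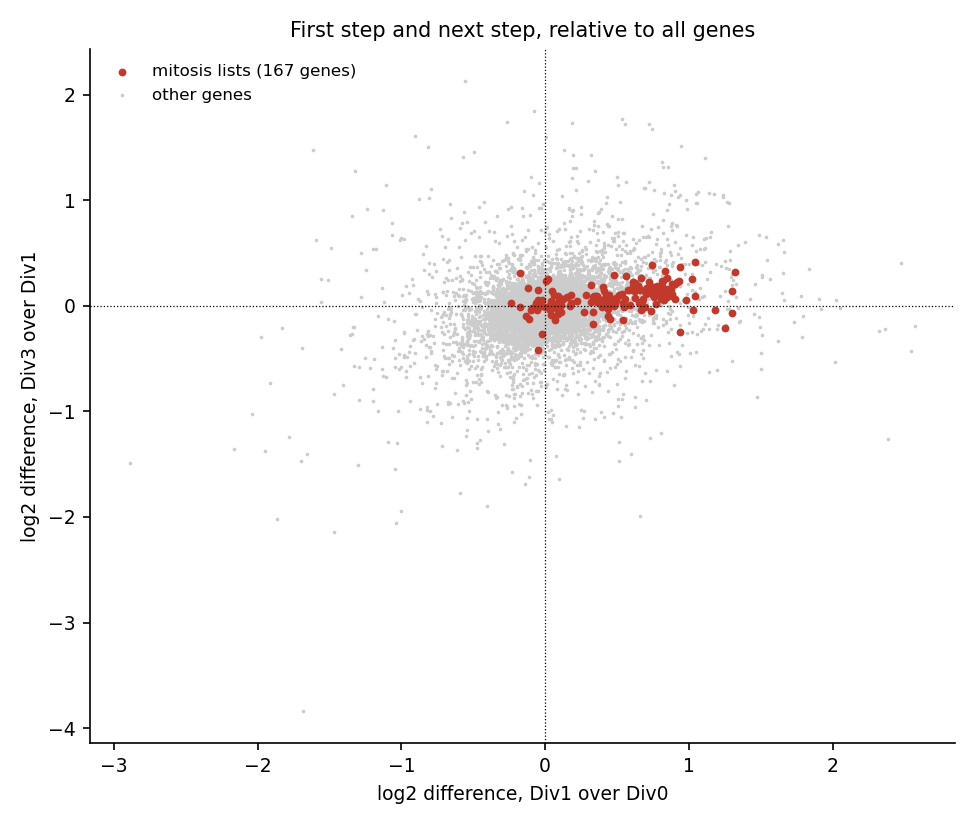
Each dot is 1 tested gene, placed by its log2 difference of Div1 over Div0 (x axis) and of Div3 over Div1 (y axis), both relative to all genes; red dots are the 167 mitosis genes. The Div1 libraries are in both axes. Red dots spread to the right of 0 along the x axis, with a median of 0.55, and stay near 0 on the y axis.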

How the data were processed

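Gene counts over exons of mm9 KnownGenes were deposited by the authors as raw counts, per the file headers. The sources used here do not name the aligner or the counter. A second deposited table holds mRNAs per cell, scaled by the authors to ERCC spike-in RNA, and deposited spike-in counts and FPKM values were used to recompute the total without the spike-in with the most counts. The submitters' processing notes name Picard and R 3.2.2. Counts were fitted here with edgeR 4.0.16 (quasi-likelihood test, TMM scaling, all 12 libraries, host as a block) in R 4.3.3, and genes needed 10 counts in both libraries of Div1 or of Div0. CPM values carry TMM factors, except the summed cell type markers. The per-cell values were fitted with limma 3.58.1 on log2(value + 0.1), with the same block, so per-cell differences of low genes are understated. The host number pairs libraries taken from the same animal. Deviations from the group means correlated at 0.294 between Div0 and Div1 (10971 genes). With Div8pos they correlated at 0.0209 for Div0 and -0.0049 for Div1, and with Div8neg at 0.0238 and 0.123. The fit nevertheless gave all 12 libraries a common host term.

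The members and lists were chosen with earlier results of these data known. Genes named are those of a fixed rule: anchor genes, the largest called changes at 10 CPM or more, up to 4 called members of each list, the genes lower per cell, the largest differences between steps, and the genes with the most mRNAs per cell. Sept9, Ccr6, Egr3, Rbl1, Cdk2, Cdc16, Cdc27, Hn1, Numa1 and Zbtb46 and the genes of the closing section were named after their values were seen. Other scalings, filters, pseudocounts, DESeq2 1.42.0, fits without the block and fits without each library were tried. The fits were tested on simulated data. Some results are not reported here.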

Additional observations from a re-analysis of the deposited data

How the results depend on the processing

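All 1177 genes called without the host block were among the 1746 of the fit with the block, in the same direction. Both hosts gave a library to every group, so leaving out the block leaves the log2 differences nearly unchanged. The agreement in direction was therefore fixed by the design. The count was 983 in DESeq2 with the block (982 shared), 2887 with Div1 and Div0 alone, and 835 to 1145 without a library. Spike-in library sizes moved the median log2 difference of all genes to 0.73 and gave 9891 calls (9875 higher, 16 lower); on that scale, where the whole pool is larger in Div1, these relative differences turned positive, at log2 Socs3 0.015, Tnfrsf1b 0.26, Cdt1 0.21, Cdkn1b 0.60, Hsph1 0.17, Dnajb1 0.38, Xbp1 0.45, Pde4b 0.41, Mapk11 0.21, Dusp7 0.24, Klf2 0.078, S1pr1 0.22, Zfp36l2 0.055, Itgb7 0.065, Icam2 0.26, Ier2 0.14, Jund 0.36, Lfng 0.16, Bcl6 0.26, Faim3 0.33, Ets1 0.35, Aldoa 0.37, Abca1 0.0056, Ahnak 0.18, Cd74 0.65 and Sept9 0.50. Other filters and size factors left 1696 to 2001 calls. The 9490 per-cell calls were 1090 to 10066 without a library and 8062 to 9891 otherwise; the per-cell log2 difference of Hbb-bs lay between -0.99 and 0.062 over the fits without a library. The 190 calls between steps were 49 without the block, 350 with no filter beyond 1 count, 1548 with spike-in library sizes, 102 in DESeq2 and 15 to 135 without a library. In the fit without the block, quiescence genes called lower fell to 6 and mitosis genes called between steps to 23. Total mRNA per cell kept a mean ratio of 1.67 to 1.71 under other sums and without the spike-in with the most counts. Without that spike-in the ratio was 1.57 in host 196 and 1.85 in host 197. The absolute scale moved more: the mean total went from 51391.7 to 63816.3 mRNAs per cell in Div1 and from 30493 to 37013.5 in Div0. The causes of these changes were not tested. Depth limits genes with few counts: apart from the globins, the genes called lower per cell had under 1 molecule per cell.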

Other observations

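In the marker list of stromal and endothelial cells 1 of 4 tested members was higher in Div1, against 8.83% of all genes. None was lower. The higher member was Kdr, with 25 and 13 counts in Div1 against 4 and 2 counts in Div0 (log2 difference 2.55, edgeR adjusted p = 0.0056). Kdr passed the count filter through Div1 alone, the group where it was higher. Whether its call held without each library is not reported here. Of the others Pecam1, which B cells also express, had 3467 and 4238 counts in Div1 and 3588 and 3188 in Div0, Cdh5 had 78 and 90 in Div1 and 67 and 64 in Div0, and Vcam1 had 57 and 69 in Div1 and 91 and 16 in Div0. Col1a1 had 0 and 7 counts in Div1 and 0 and 1 in Div0, Col1a2 had 0 and 9 in Div1 and 4 and 1 in Div0, Pdgfrb had 2 and 4 in Div1 and 3 and 1 in Div0, and Pdgfra had 0 counts in all 4 libraries. The part of such cells in the Kdr value was not tested.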
